A study of Homo sapiens with 12 samples.

Results

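The 115 genes described here are the well expressed zinc finger genes with a numbered ZNF symbol in a co-culture of 2 human cell lines. They were chosen by name (ZNF followed by digits only) and by a mean raw count of at least 500 reads over the 12 libraries, which 115 of the 478 numbered ZNF symbols in the count table reached. The other 363 had a lower mean, and 13 of them had no count in any library. The table holds 55782 gene symbols, of which 7461 reached the same mean. The cells were JurkatLAG3+PD1+, a human T cell leukaemia line made to carry the inhibitory receptors LAG3 and PD1, and Raji-PDL1, a human B cell lymphoma line made to carry the PD1 ligand. Jurkat cells were given antibody and then cultured for 24 h with Raji cells loaded with 100 ng/ml SED, a bacterial superantigen that bridges both cells through the T cell receptor. All 4 arms carried the same 2 lines and SED. The anti-LAG3 arm received MK4280 with isotype antibody, the anti-PD1 arm received MK3475 with isotype antibody, the combination received MK3475 with MK4280, and the isotype arm received isotype antibody alone. Each arm was given at 3 doses (0.01, 0.1 and 1 µg/ml per antibody), and wells were pooled into a single library for every condition. Arm means therefore rest on 3 libraries that differ in dose. Nothing names them as separate cultures, so p-values speak only of variation among libraries, some of which may be technical.

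Zinc finger proteins of the C2H2 kind read DNA with a row of small zinc-binding modules, and they form the largest family of transcription factors in the human genome. Many carry a KRAB box at the N terminus. The KRAB box recruits the co-repressor TRIM28, which brings histone methylation and silences transposable elements and genes. Genes with a KRAB box lie in tandem clusters, above all on chromosome 19, and many of their copies are close in sequence. Other members lack the box and act at promoters, in chromatin complexes, in RNA processing, on ribosomes or at the kinetochore. How reads that fit several copies were counted, and whether strand was used, is not given in the sources used here, so values of near-identical copies and of genes with an antisense partner are uncertain.

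Total counts ran from 23593973 to 36581754 per library. All 22 T cell and 22 B cell marker genes were detected, none at 0, so both lines were present in the libraries. Markers of each line were summarised as the mean log2 level of the T cell genes minus that of the B cell genes. This difference was -1.71 ± 0.04 in the anti-LAG3 arm, -1.87 ± 0.11 in the anti-PD1 arm, -1.83 ± 0.04 in the combination and -1.93 ± 0.02 in the isotype arm (SD, n = 3 each). Summed T cell markers ranged from 2002 to 2129 CPM (read counts scaled to the size of the library, with TMM factors) in the anti-LAG3 libraries and from 1802 to 1954 CPM in the isotype libraries. Summed B cell markers ranged from 9060 to 9257 CPM in the anti-LAG3 libraries and from 9011 to 10237 CPM in the isotype libraries. A gene made mostly by 1 of the lines therefore moves with the make-up of the mixture, and in bulk RNA fewer cells of a type and less RNA per cell cannot be told apart.

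A KRAB motif was found in the coding sequence of 40 of the 115 genes, and 75 had none. The motif was sought by a letter pattern, so a gene whose KRAB box departs from it is among the 75. Of the 40, 20 lay on chromosome 19, 12 on chromosome 7 and 8 elsewhere. Chromosome 19 held 34 of the 115 genes in all. The median number of C2H2 fingers counted by pattern was 9, with a range of 0 to 31. Genes with the KRAB motif had a median of 11 fingers and those without had 7. The count was 8 or more in 68 genes and 1 or 0 in 9 genes. These 9 hold fingers of other spacing or none that the pattern finds.

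The deposited gene length had a median of 6333 bp, against 5321 bp over the 7461 genes with the same mean count. It ranged from 1436 bp for ZNF32, 1699 bp for ZNF622 and 1736 bp for ZNF581 to 15842 bp for ZNF207, 16416 bp for ZNF451 and 18871 bp for ZNF445. The median GC content of the longest transcript was 45.0% in the ZNF genes, against 47.3% in the genes of the same mean count. Within the family the KRAB genes had the lower GC content, with a median of 41.6%, against 48.0% in those without the motif.

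Per length, ZNF664 was the highest member with 32.7 CPM per kb, followed by ZNF428 with 27.1, ZNF146 with 26.3, ZNF581 with 26.2 and ZNF22 with 26.1. The lowest was ZNF431, a KRAB gene of chromosome 19, with 1.40 CPM per kb, and the median was 5.80. Levels varied little from library to library. The coefficient of variation over the 12 libraries had a median of 6.21%, against 5.51% over the genes of the same mean count, and ran from 1.71% for ZNF207 to 15.9% for ZNF121. ZNF761 and ZNF304 were just inside the threshold with mean counts of 501.92 and 507.5, and ZNF747 and ZNF324 just outside it with 481.58 and 476.83.

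Promoter sequences in the RefSeq table of build GRCh38.p14 were matched by symbol for 102 of the 115 genes, each from 250 bases before to 50 bases after a start site. The letters CCGGAAG, the core that ETS factors bind, stood on either strand in 41.2% of the 102 promoters. They stood in 22.4% of the 5982 promoters of genes with a mean count of at least 500 and in 10.7% of all 27305 promoters. The letters ACTACAA, which begin a motif bound by ZNF143, were in 7.84% of the ZNF promoters, against 4.43% and 2.95%. The letters AAGATGG, the core bound by YY1, were in 7.84%, against 9.55% and 6.06%. None of these 3 strings overlaps another on either strand in the 4 promoters printed here, and a match describes letters only. Median GC content was 63.7% in the ZNF promoters, against 65.7% and 58.3%. The promoters of the 2 genes with the largest positive and the 2 with the largest negative non-additive differences, reported further on, are shown 5′ to 3′ on the strand of the gene with matches in capitals. They lie at chr19:9584455-9584754 on the minus strand for ZNF121, chr7:64665883-64666182 on the plus strand for ZNF107, chr10:43648832-43649131 on the minus strand for ZNF32 and chr5:16465751-16466050 on the minus strand for ZNF622.
ZNF121: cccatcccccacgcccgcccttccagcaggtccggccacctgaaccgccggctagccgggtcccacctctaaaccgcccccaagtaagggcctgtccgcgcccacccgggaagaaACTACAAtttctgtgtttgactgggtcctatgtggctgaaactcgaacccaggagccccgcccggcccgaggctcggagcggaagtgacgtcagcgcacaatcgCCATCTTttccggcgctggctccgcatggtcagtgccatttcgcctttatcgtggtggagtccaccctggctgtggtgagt
ZNF107: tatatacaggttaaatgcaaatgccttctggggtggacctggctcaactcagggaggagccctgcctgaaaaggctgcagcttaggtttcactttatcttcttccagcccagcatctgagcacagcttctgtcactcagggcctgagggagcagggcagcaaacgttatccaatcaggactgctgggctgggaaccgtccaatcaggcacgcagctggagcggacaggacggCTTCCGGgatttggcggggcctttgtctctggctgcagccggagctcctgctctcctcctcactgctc
ZNF32: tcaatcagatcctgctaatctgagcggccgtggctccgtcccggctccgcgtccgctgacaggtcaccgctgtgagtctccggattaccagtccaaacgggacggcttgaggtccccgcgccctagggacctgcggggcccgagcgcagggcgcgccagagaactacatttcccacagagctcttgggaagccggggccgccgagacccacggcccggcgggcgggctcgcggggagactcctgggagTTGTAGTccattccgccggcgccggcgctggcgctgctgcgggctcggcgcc
ZNF622: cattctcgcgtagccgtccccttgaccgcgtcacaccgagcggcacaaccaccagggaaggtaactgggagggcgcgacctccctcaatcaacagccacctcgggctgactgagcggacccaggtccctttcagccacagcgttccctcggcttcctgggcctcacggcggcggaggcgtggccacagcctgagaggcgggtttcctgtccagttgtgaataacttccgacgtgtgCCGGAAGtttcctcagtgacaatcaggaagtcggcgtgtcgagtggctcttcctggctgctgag
In these 4, capitals mark ACTACAA and the reverse complement of AAGATGG in ZNF121, the reverse complement of CCGGAAG in ZNF107, the reverse complement of ACTACAA in ZNF32, and CCGGAAG in ZNF622. The ZNF121 and ZNF32 promoters, of a gene lower and a gene higher under anti-LAG3, thus share 1 string, as do those of ZNF107 and ZNF622.

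The family was lower as a whole in both single antibody arms than in the isotype arm. The 115 genes summed to 5102 ± 24 CPM under anti-LAG3, 5132 ± 63 CPM under anti-PD1 and 5290 ± 75 CPM under the combination, against 5386 ± 41 CPM under isotype (SD, n = 3 each). Every anti-LAG3 and every anti-PD1 library was below every isotype library in this sum, and the combination at 0.1 µg/ml, with 5354 CPM, overlapped the isotype range of 5344 to 5426 CPM. The median member stood at -0.07, -0.09 and -0.06 on the log2 scale relative to the isotype mean in the anti-LAG3 libraries at 0.01, 0.1 and 1 µg/ml. It stood at -0.11, -0.07 and -0.05 in the anti-PD1 libraries and at -0.02, -0.01 and -0.05 in the combination libraries, and the median of all tested genes stayed within 0.01 of 0 in every library.

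**Figure D1:**
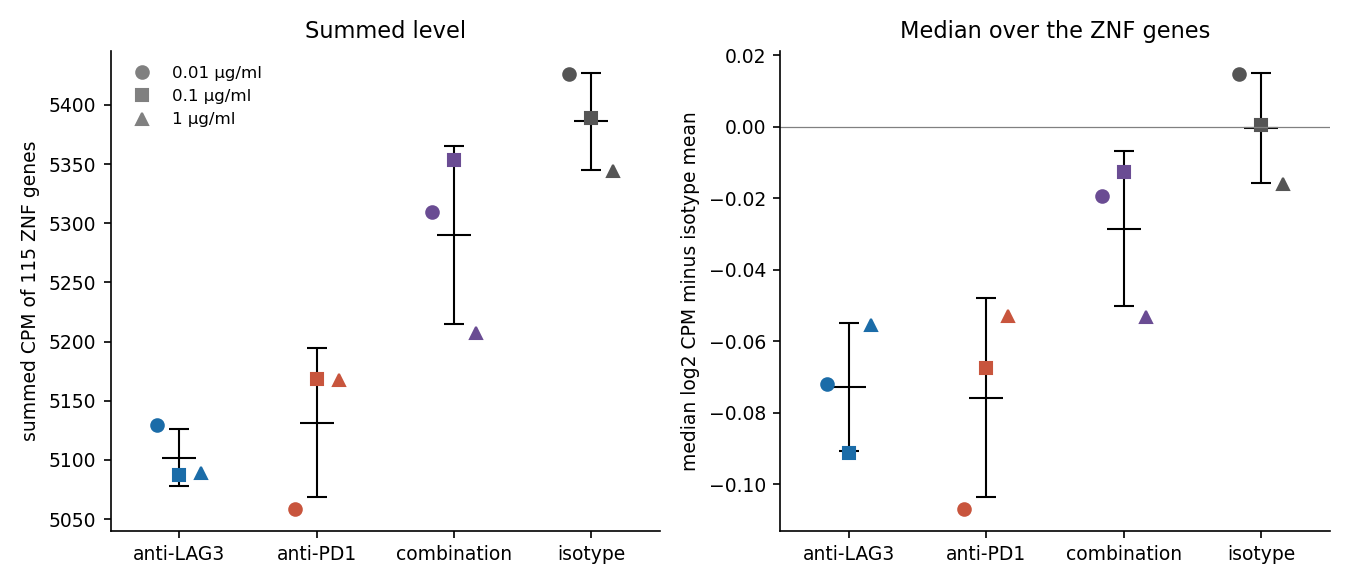
Left, summed CPM of the 115 ZNF genes in each library; right, the median over these genes of log2 CPM minus the isotype mean. Each point is 1 library, shaped by dose in µg/ml, bars are mean ± SD of 3 libraries per arm, and neither axis starts at 0; the anti-LAG3 and anti-PD1 libraries sum to 5059 to 5169 CPM, all below the isotype libraries at 5344 to 5426 CPM.

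With anti-LAG3, 21 of the 115 genes fell and 5 rose relative to isotype (edgeR quasi-likelihood F test, Benjamini-Hochberg adjusted p under 0.05 over all 15535 genes tested). Over all tested genes 5.16% fell and 4.88% rose, and over the genes with a mean count of at least 500 the shares were 8.78% and 8.55%. All 115 passed the filter on low counts. The median log2 difference of the family was -0.08, against 0.00 over all genes, and 84 of the 115 were negative. All 3 anti-LAG3 libraries lay below all 3 isotype libraries for 45 genes, which was so for 14.2% of tested genes. They lay above all 3 isotype libraries for 12 genes, and the share of tested genes for that is not given here. Neither share is given over the genes with a mean count of at least 500, in this or the other arms. The number of calls changed with single libraries. Leaving out the 1, 0.1 or 0.01 µg/ml anti-LAG3 library gave 12, 8 and 17 calls, and leaving out the 0.1 or 0.01 µg/ml isotype library gave 8 and 12.

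ZNF121, a finger gene without a KRAB motif at chr19:9560353-9584533, had the largest fall. It had 21.7, 21.7 and 21.7 CPM at 0.01, 0.1 and 1 µg/ml of anti-LAG3, 22.3, 22.8 and 21.4 CPM with anti-PD1 and 28.1, 27.5 and 23.1 CPM with the combination, against 28.4, 33.9 and 27.5 CPM with isotype. The single antibody libraries were all below every isotype library, and the combination overlapped the isotype range. The anti-LAG3 difference was -0.46 ± 0.07 on the log2 scale (SE, adjusted p = 0.000728, edgeR). Its promoter is the first printed above.

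Among the 40 genes with a KRAB motif, 4 fell with anti-LAG3 and 0 rose. At an unadjusted p under 0.05 the numbers were 11 and 1, and DESeq2 called 4 and 0. Of the 7461 genes with a mean count of at least 500, 1341 fell and 1353 rose at that unadjusted p. At an adjusted p under 0.05 the share of falls was 10% in the KRAB genes, near the 8.78% over those 7461 genes. The median log2 difference of the KRAB genes was -0.10, and 33 of the 40 were negative. The 4 KRAB genes that fell were ZNF107, ZNF562, ZNF43 and ZNF267. ZNF107, with 16 counted fingers at chr7:64666083-64711582, had 54.3, 56.9 and 56.0 CPM with anti-LAG3, 55.2, 57.0 and 58.0 CPM with anti-PD1 and 68.2, 65.6 and 62.2 CPM with the combination, against 70.1, 70.3 and 65.5 CPM with isotype, in order of rising dose. Again the single antibody libraries lay below all isotype libraries and the combination did not. The difference was -0.30 ± 0.05 (SE, adjusted p = 0.00122, edgeR). ZNF562, at chr19:9641808-9675086 and the nearest member to ZNF121, differed by -0.28, and ZNF43, a gene of the cluster further along the same chromosome, by -0.28. With an offset for each library's trend with GC content and length, described further on, these 2 calls and that of ZNF267 were lost (adjusted p = 0.172, 0.143 and 0.262, edgeR).

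On chromosome 19 the members on the short-arm side lay lower than the others. The 11 members that start before position 24000000 all had negative differences with anti-LAG3, from -0.46 to -0.03 with a median of -0.18, and 9 of the 11 carried the KRAB motif. Their medians were 6845 bp and 37.6% GC. The other 23 members of the chromosome, with medians of 4714 bp and 47.4% GC, ran from -0.25 to 0.21 with a median of -0.05. This division was chosen after the values were seen and was not tested. The 17 members on chromosome 7 had a median of -0.07.

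Of the 75 members without the motif, 17 fell and 5 rose with anti-LAG3. These were 22.7% and 6.67%, where 8.78% and 8.55% of all genes with a mean count of at least 500 fell and rose. A list of promoter and chromatin factors, not complete, held 10 of the 75, with a median of -0.09 and 9 of 10 below 0. In this group 2 fell and 0 rose, and at an unadjusted p under 0.05 the numbers were 4 and 0, with 2 and 0 by DESeq2. ZNF148, which binds GC-rich promoter elements, fell by 0.15 on the log2 scale and ZNF592, a subunit of a ZMYND8-containing chromatin module, fell by 0.17. ZNF143, which binds promoters and loop anchors, had 20.9, 19.3 and 20.8 CPM at rising doses of anti-LAG3, against 19.6, 18.8 and 23.5 CPM with isotype. The ZNF143 ranges overlapped and its difference was -0.02 ± 0.07 (SE, adjusted p = 0.884, edgeR). ZNF217, a partner of co-repressor complexes that is amplified in breast cancer, and ZNF281, a factor tied to pluripotency, differed by -0.06 and -0.13 without passing the test. ZNF687, also a member of the ZMYND8 module, differed by -0.0030 (adjusted p = 0.985, edgeR). With the GC and length offset ZNF592 stood at -0.16 (adjusted p = 0.0424, edgeR) and the call of ZNF148 was lost, at -0.02 (adjusted p = 0.824, edgeR).

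Of the 6 largest falls with anti-LAG3, 4 were in other genes without the motif, ZNF532, ZNF827, ZNF142 and ZNF609. ZNF532, which belongs to the same module as ZNF592 and lies at chr18:58862600-58986480, had 17.0, 16.5 and 16.7 CPM with anti-LAG3, against 22.4, 21.5 and 19.8 CPM with isotype, and fell by 0.34 on the log2 scale. ZNF827, which recruits the NuRD complex to telomeres, had 19.5, 19.1 and 19.3 CPM with anti-LAG3, against 26.6, 24.2 and 22.5 CPM with isotype, and fell by 0.33. Neither gene's anti-LAG3 libraries overlapped its isotype libraries. ZNF142, a protein of 31 counted fingers, had 52.8, 45.9 and 46.0 CPM with anti-LAG3, against 60.0, 61.1 and 56.8 CPM with isotype, a difference of -0.30 ± 0.06 (SE, adjusted p = 0.00373, edgeR). ZNF609, a regulator of transcription whose locus also gives a well known circular RNA, had 66.6, 62.2 and 60.3 CPM with anti-LAG3, against 76.6, 78.1 and 75.5 CPM with isotype, a difference of -0.28. Reads of that circle cannot be told apart from the linear transcript in gene counts.

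Members listed for roles beyond binding DNA moved in both directions. Of 7, 2 fell and 1 rose with anti-LAG3, where 8.78% and 8.55% of genes with a mean count of at least 500 did. ZNF326, a subunit of a complex that couples transcription elongation to splicing, fell by 0.24, and ZNF638, which is known for silencing unintegrated retroviral DNA with the HUSH complex, fell by 0.16. Neither call held with the GC and length offset, where ZNF326 stood at -0.10 (adjusted p = 0.284, edgeR) and ZNF638 at -0.02 (adjusted p = 0.880, edgeR). ZNF622, a factor of the maturing large ribosomal subunit at chr5:16451519-16465792, rose. It had 34.2, 34.4 and 35.7 CPM with anti-LAG3, 32.9, 33.8 and 30.8 CPM with anti-PD1 and 30.7, 29.5 and 32.8 CPM with the combination, against 30.1, 28.6 and 30.9 CPM with isotype. Its anti-LAG3 libraries lay above every isotype library, with a difference of 0.22 ± 0.06 (SE, adjusted p = 0.0253, edgeR). ZNF598, the ubiquitin ligase that marks collided ribosomes, differed by -0.06 (adjusted p = 0.562) and ZNF207, a kinetochore protein that binds BUB3, by -0.0010 (adjusted p = 0.992). With the offset both were called, ZNF598 at -0.18 (adjusted p = 0.0417, edgeR) and ZNF207 at 0.17 (adjusted p = 0.0112, edgeR). ZNF207 had 212 to 223 CPM in all 12 libraries, the narrowest relative range in the family.

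The other 4 genes that rose with anti-LAG3 were ZNF32, ZNF428, ZNF787 and ZNF672. ZNF32, a short 6-finger gene at chr10:43643859-43648856, had 22.6, 21.8 and 25.1 CPM with anti-LAG3, 21.0, 18.9 and 21.1 CPM with anti-PD1 and 20.5, 16.1 and 17.1 CPM with the combination, against 17.5, 18.0 and 18.6 CPM with isotype. The 3 anti-LAG3 libraries were above the 9 others for ZNF32, and the difference was 0.36 ± 0.08 (SE, adjusted p = 0.00489, edgeR). ZNF428 differed by 0.21, ZNF787 by 0.20 and ZNF672 by 0.16. All 5 genes that rose were among the shortest 38 of the 115, and none had the KRAB motif. The calls of ZNF428, ZNF787, ZNF672 and ZNF622 did not hold with the offset for length alone, where their adjusted p was 0.193, 0.118, 0.149 and 0.234 (edgeR).

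**Figure D2:**
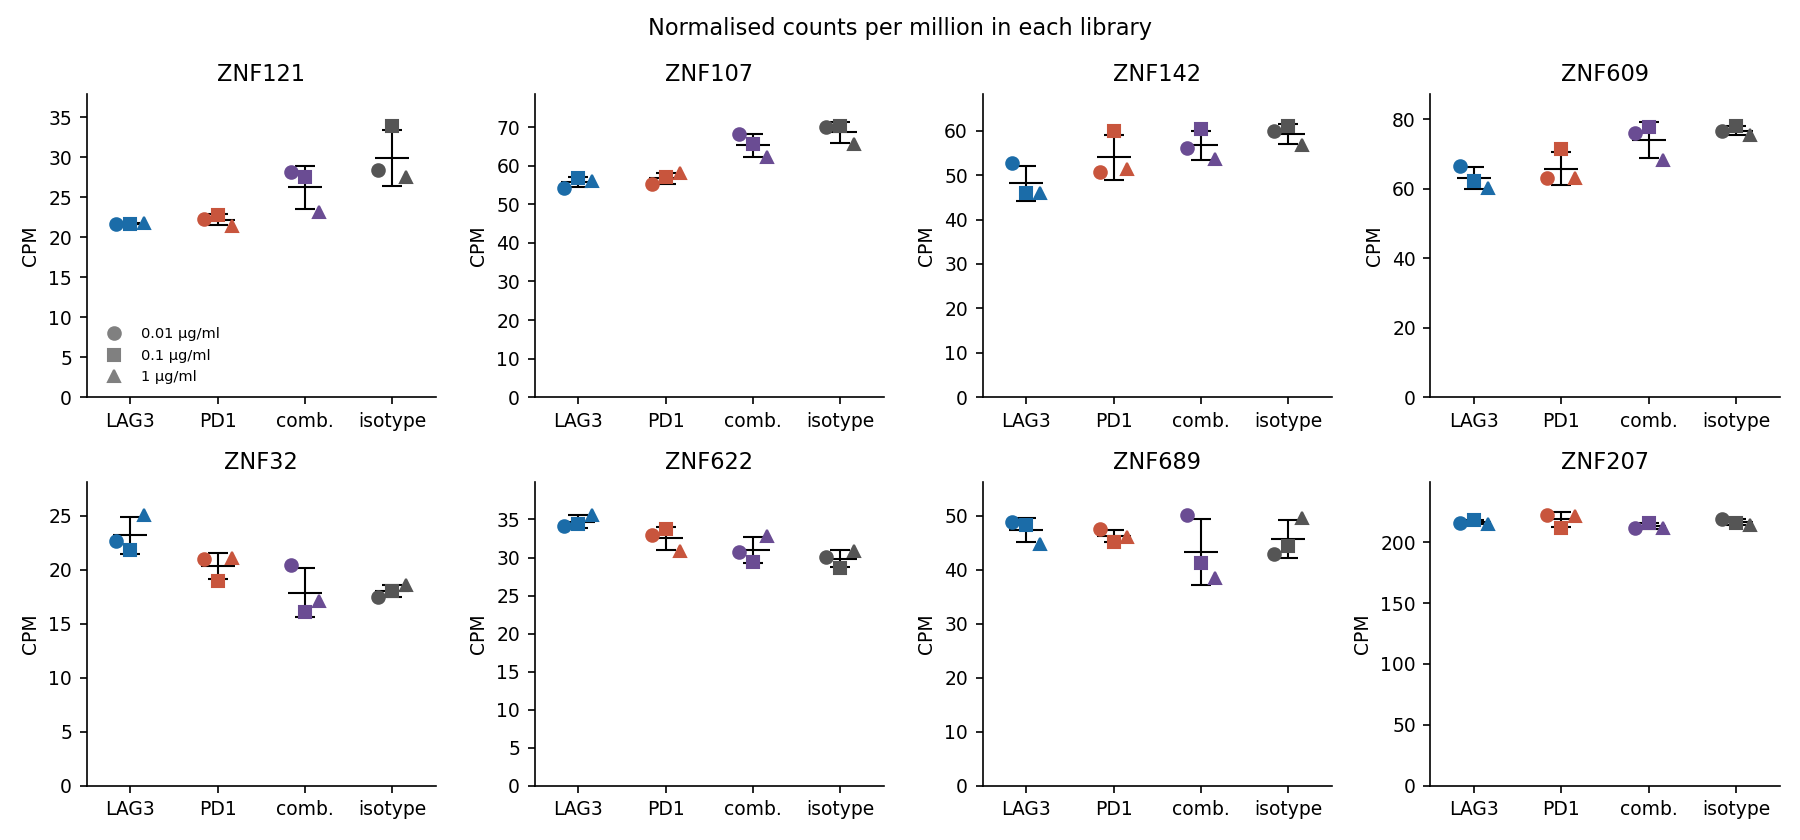
CPM on a linear axis from 0 in each library for 8 ZNF genes, by arm (anti-LAG3, anti-PD1, combination, isotype), with points shaped by dose and bars of mean ± SD of 3 libraries. In ZNF121 and ZNF107 the single antibody libraries lie below all isotype libraries and the combination mean between, in ZNF32 and ZNF622 anti-LAG3 lies above isotype, in ZNF689 the combination is highest at 0.01 µg/ml with 50.2 CPM and lowest at 1 µg/ml with 38.5 CPM, and ZNF207 is flat at 212 to 223 CPM.

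With anti-PD1, 10 of the 115 genes fell and 0 rose relative to isotype (edgeR, same test). At an unadjusted p under 0.05 the numbers were 41 and 9, and DESeq2 called 10 and 0. Of the 7461 genes with a mean count of at least 500, 1003 fell and 1082 rose at that unadjusted p. At an adjusted p under 0.05 the shares were as follows. Over all tested genes 1.73% fell and 2.09% rose, and over those with a mean count of at least 500 the shares were 3.24% and 3.83%. The family median was -0.07, with 87 of 115 negative, and all 3 anti-PD1 libraries lay below all isotype libraries for 31 genes, which held for 11% of tested genes. They lay above all isotype libraries for 7 genes, for which no share of tested genes is given. The 10 genes that fell were ZNF121, ZNF562, ZNF43, ZNF107, ZNF721, ZNF326, ZNF292, ZNF609, ZNF267 and ZNF770. KRAB genes made up 5 of the 10, and the median of the 40 KRAB genes was -0.11. Single libraries decided this count more than that of anti-LAG3. Leaving out the 1, 0.1 or 0.01 µg/ml anti-PD1 library gave 6, 4 and 0 calls, and leaving out the 1, 0.1 or 0.01 µg/ml isotype library gave 16, 0 and 3.

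ZNF121 differed by -0.43 ± 0.07 with anti-PD1 (SE, adjusted p = 0.00461, edgeR) and ZNF107 by -0.27 ± 0.05 (adjusted p = 0.00717, edgeR). The KRAB gene ZNF721, on chromosome 4, had 31.7, 35.1 and 36.5 CPM with anti-PD1 at rising doses, against 42.7, 40.0 and 41.1 CPM with isotype. No anti-PD1 library reached the isotype range for ZNF721, and its difference was -0.26. ZNF562, ZNF43 and ZNF326 differed by -0.29, -0.27 and -0.26. ZNF32 and ZNF622, the 2 largest rises with anti-LAG3, differed by 0.17 and 0.12 with anti-PD1 and did not pass the test (adjusted p = 0.234 and 0.296, edgeR). Both comparisons use the same isotype libraries, so values that are alike in both are not independent of each other.

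The 2 single antibodies were not told apart by any member. In anti-PD1 minus anti-LAG3, 0 of the 115 genes were called, as were 0% of all tested genes in either direction. An unadjusted p under 0.05 was reached by 12 members, 6 in each direction, and DESeq2 called 0. The number of all genes at that unadjusted p is not given here. The smallest p belonged to ZNF142, with 50.7, 59.9 and 51.3 CPM with anti-PD1, against 52.8, 45.9 and 46.0 CPM with anti-LAG3. Its libraries overlapped and the difference was 0.16 ± 0.06 (SE, adjusted p = 0.975, edgeR).

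With the combination, 0 of the 115 genes were called against isotype (edgeR), and 0.00644% of all tested genes rose and 0% fell. An unadjusted p under 0.05 was reached by 5 members, each lower in the combination, and DESeq2 called 0. Of the 7461 genes with a mean count of at least 500, 183 were lower and 262 higher at that unadjusted p. The family median was -0.03 with 78 of 115 negative. For 10 genes all 3 combination libraries lay below all isotype libraries, which held for 4.2% of tested genes. For 5 genes they lay above all isotype libraries, and no share of tested genes is given for that. ZNF121 had the smallest p, with a difference of -0.19 ± 0.07 (SE, adjusted p = 0.577, edgeR). ZNF107 differed by -0.07, ZNF32 by -0.01 and ZNF622 by 0.05.

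Against anti-LAG3 alone, 10 members were higher in the combination and 2 lower (edgeR, adjusted p under 0.05), where 2.61% of all tested genes were higher and 3.14% lower. Over the genes with a mean count of at least 500 the shares were 4.57% and 4.8%. The largest rises were ZNF532, with 21.2, 21.0 and 19.6 CPM in the combination, against 17.0, 16.5 and 16.7 CPM with anti-LAG3, and ZNF827. The fitted differences were 0.30 ± 0.07 for both (SE, adjusted p = 0.0186 and 0.0212, edgeR), and the ZNF532 libraries of the 2 arms did not overlap. The 2 falls were ZNF32, with -0.37 ± 0.08 (adjusted p = 0.00854), and ZNF444, a gene of chromosome 19 with 30.1, 29.1 and 25.9 CPM in the combination, against 33.3, 33.3 and 33.0 CPM with anti-LAG3. The count was 1, 2 and 6 when the 1, 0.1 or 0.01 µg/ml anti-LAG3 library was left out, and 6 and 0 when the 1 or 0.1 µg/ml combination library was.

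Against anti-PD1 alone, 0 members were called in the combination (edgeR), where 0.116% of all tested genes rose and 0.238% fell. An unadjusted p under 0.05 was reached by 23 members, 20 higher and 3 lower, and DESeq2 called 2. The number of all genes at that unadjusted p is not given here. ZNF107 had the smallest p, with 68.2, 65.6 and 62.2 CPM in the combination, against 55.2, 57.0 and 58.0 CPM with anti-PD1. Those libraries did not overlap, and the difference was 0.20 ± 0.05 (SE, adjusted p = 0.0745, edgeR).

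A non-additive term asked whether the combination departed from the sum of the single antibody differences. It is the difference of the combination from isotype less both single antibody differences from isotype, so a positive value means that the combination lay above the sum. In this term 30 members were positive and 6 negative at an adjusted p under 0.05 (edgeR), where 7.3% of all tested genes were positive and 7.97% negative. Over the genes with a mean count of at least 500 the shares were 12% and 13.2%. The family median was 0.14. The KRAB genes had 12 positive calls and 0 negative ones, 15 and 2 at an unadjusted p under 0.05 and 9 and 0 by DESeq2, with a median of 0.14. The number of all genes at that unadjusted p is not given here. The total of 36 calls became 23 when the 1 µg/ml anti-LAG3 library was left out, 21 for the 0.01 µg/ml anti-PD1 library, 21 for the 0.1 µg/ml combination library and 20 for the 0.1 µg/ml isotype library.

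ZNF121 had the largest positive term, 0.70 ± 0.10 (SE, adjusted p = 0.000136, edgeR), and ZNF107 followed with 0.50 ± 0.07 (adjusted p = 0.000129, edgeR). The largest negative terms were those of ZNF32, -0.55 ± 0.11 (adjusted p = 0.00179, edgeR), and ZNF622, -0.29 ± 0.09 (adjusted p = 0.0279, edgeR). For ZNF121 the term sets -0.19 in the combination against the single antibody differences of -0.46 and -0.43. For ZNF32 it sets -0.01 against 0.36 and 0.17.

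Few dose slopes were called. The slope of log2 level on log10 dose, minus the isotype slope, called 0 members for anti-LAG3, where 0.0579% of all tested genes rose and 0.0129% fell, and 0 for anti-PD1, where 0.0837% rose and 0.18% fell (edgeR). At an unadjusted p under 0.05 there were 9 and 11 members, and DESeq2 called 0 for both. The numbers of all genes at that unadjusted p are not given here. ZNF589 had the smallest p for anti-LAG3, with 0.24 per 10-fold dose (adjusted p = 0.390, edgeR), and ZNF511 for anti-PD1, with -0.25 (adjusted p = 0.103, edgeR). For the combination 1 member was called, with 1.83% of all tested genes rising and 2.8% falling. That was ZNF689, a KRAB gene of chromosome 16, which had 50.2, 41.2 and 38.5 CPM at 0.01, 0.1 and 1 µg/ml of the combination, against 42.9, 44.5 and 49.7 CPM with isotype. The combination was lower at each higher dose and isotype was higher, and the difference in slope was -0.30 ± 0.06 per 10-fold dose (SE, adjusted p = 0.00328, edgeR). The number called was 0 when the 0.01 µg/ml combination library or the 1 or 0.01 µg/ml isotype library was left out. It was 2, 3 and 3 when the 1, 0.1 or 0.01 µg/ml anti-PD1 library was left out.

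The anti-LAG3 differences ran with gene length. In anti-LAG3 minus isotype the shortest 38 members, of 1436 to 4895 bp, had 5 rises, 1 fall and a median of 0.02. The middle 39, of 4936 to 7335 bp, had 0 rises, 7 falls and a median of -0.09, and the longest 38, of 7393 to 18871 bp, had 0 rises, 13 falls and a median of -0.13. At an unadjusted p under 0.05 neither of the longer groups had a rise, and DESeq2 called none there. Across the 115 members Spearman's rho between length and the log2 difference was -0.55, and between GC content and the difference 0.43. Over all 15535 tested genes the same rho was -0.19 for length, and 0.33 for GC content over the genes with a GC value. Over the genes with a mean count of at least 500 it was -0.50 for length and 0.47 for GC content, near the members' values. These are descriptions across genes, which share libraries and are not independent replicates.

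The same gradient ran through all genes of the same mean count, of which the members are 115 of 7461. Among genes with a mean count of at least 500, the shortest bin, up to 3110 bp, had 339 rises and 13 falls in 1493 genes with anti-LAG3, and a median of 0.10. The longest bin, from 8568 bp, had 20 rises and 359 falls in 1491 genes, and a median of -0.09. ZNF members in that longest bin had 0 rises and 10 falls in 25, and a median of -0.15. In the bin of 6191 to 8563 bp the 33 members had 9 falls and a median of -0.11, where all 1493 genes had 167 falls and a median of -0.03. In the bin of 4570 to 6190 bp the 27 members had a median of -0.06, where all 1490 genes had -0.01. In the bin of 3111 to 4567 bp the 19 members had a median of 0.031, where all 1494 genes had 0.035. In the shortest bin the 11 members had a median of 0.05, where all genes had 0.10. The members' medians thus lay below those of all genes in each of the 5 bins, barely so from 3111 to 4567 bp, and these gaps were not tested. The bins do not match GC content. The members' median GC content was below that of all genes in the bins from 4570 bp up and above it in the shorter bins.

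**Figure D3:**
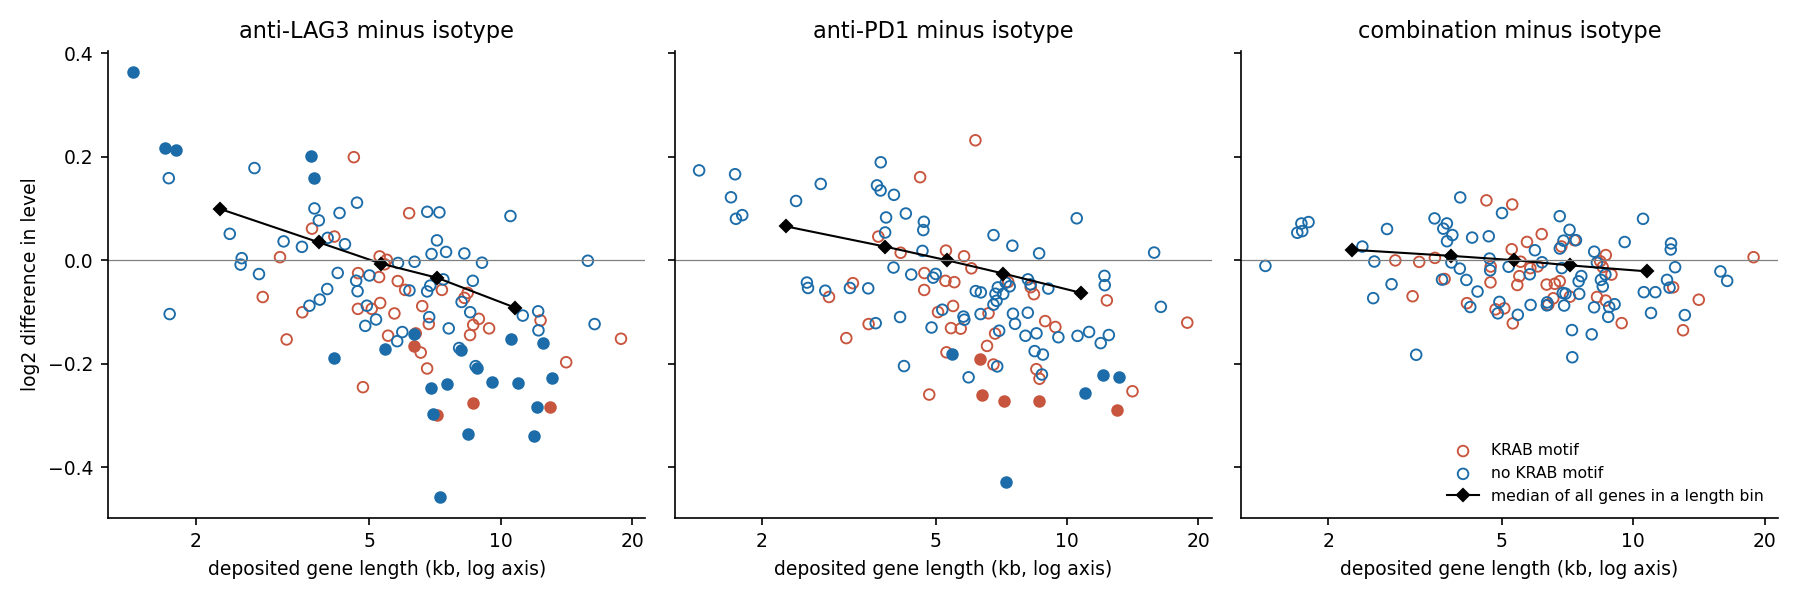
Log2 difference from isotype (vertical axis) against deposited gene length in kb (log axis) for the 115 ZNF genes with anti-LAG3, anti-PD1 and the combination, filled where the adjusted p is under 0.05. Diamonds join the medians of all genes with a mean count of at least 500 in 5 length bins; with anti-LAG3 these run from 0.10 in the shortest bin to -0.09 in the longest, and all 5 ZNF genes that rose lie at the short end.

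With anti-PD1 rho over the members was -0.50 for length and 0.61 for GC content, and with the combination -0.30 and 0.19. For the non-additive term it was 0.55 and -0.57, for the combination minus anti-LAG3 0.46 and -0.40, for the combination minus anti-PD1 0.45 and -0.66 and for anti-PD1 minus anti-LAG3 0.21 and 0.19. For the dose slopes less the isotype slope, rho with length was 0.19 for anti-LAG3, 0.33 for anti-PD1 and 0.13 for the combination. Over all genes with a mean count of at least 500, rho for length and GC content was -0.40 and 0.57 with anti-PD1. It was -0.25 and 0.16 with the combination, and 0.46 and -0.54 for the non-additive term. For the slopes, rho with length over these genes was 0.11, 0.44 and 0.20 in the same order of arms. The libraries themselves differed along these axes. Across the members, rho between GC content and the log2 level relative to the mean library was 0.78 in the anti-PD1 library at 0.1 µg/ml and -0.03 in that at 1 µg/ml, against -0.31 to -0.36 in the isotype libraries. For length, rho ran from -0.40 to -0.33 in the anti-LAG3 libraries and from 0.09 to 0.58 in the isotype libraries.

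When each library's trend with GC content and length was removed by an offset, 2 members rose and 13 fell with anti-LAG3 (edgeR), where 2.04% of all tested genes rose and 2.94% fell. Shares over the genes with a mean count of at least 500, the higher ones without the offset, are not given with it in any comparison. The all-gene shares may thus be too low a measure for the members. Genes without a GC value took only the length part of the offset. Of the 26 genes called without the offset, 11 were called in the same direction with it. They were ZNF121, ZNF107, ZNF142, ZNF609, ZNF532, ZNF827, ZNF318, ZNF335, ZNF592, ZNF146 and ZNF32. The family median was -0.04 with the offset, with 82 of 115 negative. ZNF121 then differed by -0.38 (adjusted p = 0.00359, edgeR) and ZNF32 by 0.29 (adjusted p = 0.0218, edgeR). The other 15 calls were lost with it, those of ZNF326, ZNF638, ZNF148, ZNF562, ZNF43, ZNF267, ZNF292, ZNF608, ZNF652, ZNF664, ZNF770 and, among the rises, ZNF622, ZNF428, ZNF787 and ZNF672. The 4 members called with the offset alone were ZNF207, the long gene with flat CPM and the other rise, ZNF598, ZNF777, at -0.28 (adjusted p = 0.0126, edgeR), and ZNF296, at -0.30 (adjusted p = 0.00908, edgeR).

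With anti-PD1 and the offset, 1 member was called, a fall, where 0.161% of all tested genes fell and 0.0772% rose. That gene was ZNF121, at -0.36 (adjusted p = 0.0374, edgeR), and the other 9 calls were lost. In the non-additive term with the offset 14 members were positive and 2 negative, where 4% of all tested genes were positive and 3.39% negative. Of the 36 called without the offset, 10 were called in the same direction with it, among them ZNF121 at 0.57 and ZNF107 at 0.35. ZNF32 stayed negative at -0.46, and the term of ZNF622 no longer passed the test (adjusted p = 0.306, edgeR). Of the 36, 2 had the opposite sign with the offset, ZNF428 (-0.23 without it and 0.01 with it) and ZNF787 (-0.29 and 0.06), and neither was called with it.

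**Figure D4:**
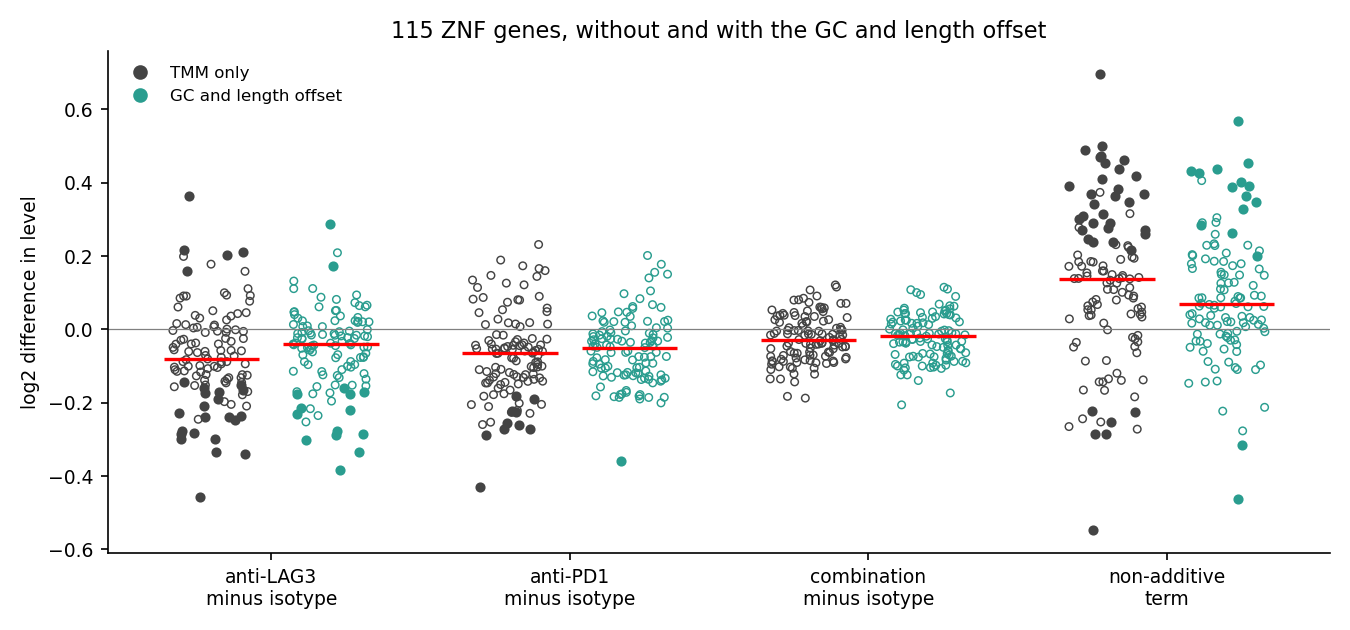
Log2 differences of the 115 ZNF genes in 4 comparisons, scaled by TMM only (grey, left of each pair) and with the GC and length offset (green, right), filled where the adjusted p is under 0.05; red lines are medians. With anti-LAG3 the median is -0.08 without and -0.04 with the offset, and in the non-additive term it is 0.14 without and 0.07 with it.

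The T cell minus B cell marker difference also moved with the arms. All anti-LAG3 libraries, at -1.76 to -1.68, were above all isotype libraries, at -1.95 to -1.91, so that arm and marker difference cannot be told apart in this comparison. With the marker difference as a covariate, edgeR called 0 members for anti-LAG3, with 27 at an unadjusted p under 0.05, and the family median was -0.11. For anti-PD1 the same covariate left 1 rise and 10 falls, and the median was -0.10. Shares over all tested genes with the covariate are not given here. These counts thus cannot be set against those of other genes.

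The partners of KRAB proteins were read from a list of 21 genes of the TRIM28, HUSH, heterochromatin and NuRD machinery. Their median length was 7392 bp and their median GC content 44.1%, against 5321 bp and 47.3% over the genes with a mean count of at least 500. Among those genes, 11.2% of the ones of 6191 to 8563 bp fell with anti-LAG3. Whether length or GC content bears on this list was not tested. With anti-LAG3, 5 of the 21 fell and 0 rose, at an unadjusted p under 0.05 7 and 1, and by DESeq2 6 and 0. Over the genes with a mean count of at least 500, 8.78% fell and 8.55% rose. No values of single genes of this list with the GC and length offset are given here. The 5 that fell were ATRX, a chromatin remodeller that works with DAXX, at -0.29, ATF7IP, the partner of the methyltransferase SETDB1, at -0.23, FAM208A, a HUSH subunit also named TASOR, at -0.18, CHD3, a NuRD remodeller, at -0.18, and CBX5, a heterochromatin protein, at -0.16. With anti-PD1 ATRX fell by 0.22 and TRIM28 rose by 0.18, where 3.24% and 3.83% of genes with that mean count fell and rose. TRIM28, the co-repressor itself, had 634, 660 and 629 CPM with anti-PD1 at rising doses, against 569, 581 and 548 CPM with isotype, and the groups did not overlap.

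The list had a median of -0.07 with anti-LAG3 and -0.05 with anti-PD1, and in the combination minus isotype 0 of 21 were called, with 1 at an unadjusted p under 0.05 and 0 by DESeq2. In the non-additive term 5 were positive, ATRX, ATF7IP, MPHOSPH8, FAM208A and CHD3, and TRIM28 was negative at -0.29. Of the genes with a mean count of at least 500, 12% were positive and 13.2% negative in this term. The 28 other C2H2 genes of the same mean count (ZSCAN, ZKSCAN, ZBTB and ZFP symbols), with a median length of 5890.5 bp, lay near the numbered ZNF genes. With anti-LAG3 3 of the 28 fell and 0 rose, 8 and 0 at an unadjusted p under 0.05 and 2 and 0 by DESeq2, and their median was -0.11. With anti-PD1 3 fell and 0 rose, 12 and 0 at an unadjusted p under 0.05 and 3 and 0 by DESeq2, and their median was -0.10. The shares of falls among genes with a mean count of at least 500 were 8.78% with anti-LAG3 and 3.24% with anti-PD1.

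The authors' deposited tables compare each antibody library with the 3 isotype libraries. Each of these comparisons thus rests on 1 antibody library against isotype libraries of 3 doses. In the authors' deposited table for anti-LAG3 at 1 µg/ml, 2 members fell at an adjusted p under 0.05, ZNF142 with a log2 fold change of -0.37 and ZNF609 with -0.35, where 1.55% of the genes with an adjusted p fell. In the authors' deposited table at 0.1 µg/ml ZNF142 fell, with -0.37, where 2.18% of genes fell. The other 7 of the authors' deposited tables called no member, by the authors' adjusted p. In the authors' deposited tables an adjusted p was given for 79 of the 115 members for anti-LAG3 at 0.1 µg/ml, 50 for anti-LAG3 at 0.01 µg/ml and 59 for anti-PD1 at 0.01 µg/ml, so the rest could not be called there, and for all 115 in the other 6 tables. The median log2 fold change of the members in the authors' deposited tables at 0.01, 0.1 and 1 µg/ml was -0.07, -0.10 and -0.06 for anti-LAG3, -0.10, -0.07 and -0.06 for anti-PD1 and -0.02, -0.02 and -0.05 for the combination.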

How the data were processed

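For the 12 libraries the authors deposited raw read counts and a gene length per symbol, and tables of log2 fold changes with p-values; Trimmomatic 0.36, STAR 2.5.2b, featureCounts of Subread 1.5.2, DESeq2 and GRCh38 appear in the submitters' processing notes. Left out were 4 count columns matching no sample and 36 per-sample columns of the comparison tables. The counts were tested in R 4.3.3 with edgeR 4.0.16 (filterByExpr, minimum count 10, 15535 genes; TMM; robust quasi-likelihood F test; arm plus dose as a factor, 6 residual degrees of freedom, and for slopes arm plus log10 dose per arm, 4), after a check on simulated data. CPM are TMM-scaled. GC content, positions, fingers and the KRAB motif come from GENCODE 29 matched by symbol (115 of 115); GC was present for 87.8% of tested genes. Offsets are lowess trends (span 0.3). Alternatives were DESeq2 1.42.0, its size factors, no filter, no replicate block, length and GC offsets, the marker covariate and leaving out each library. Genes are named by adjusted p and size of change (6 largest each way per arm, 2 elsewhere), level per length, length and known role, and a few others after their values were seen. The members and lists were chosen with earlier results of these data known. Libraries of the same dose share the replicate number; the 18 same-dose pairs correlated from -0.36 to 0.35, and 10 were over 0.1, so dose is a factor, not a pairing of cultures.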

Additional observations from a re-analysis of the deposited data

Results flagged for a closer look

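The departure of the combination from the sum of the single antibodies was called by its own test in 36 of the 115 ZNF genes (edgeR, adjusted p under 0.05), 30 above the sum and 6 below. Among all genes with a mean count of at least 500, 12% were above the sum and 13.2% below, so many calls were not particular to the family. On the log2 scale the 2 largest positive terms were those of ZNF121 (0.70) and ZNF107 (0.50), and the 2 largest negative ones those of ZNF32 (-0.55) and ZNF622 (-0.29). The dose slope of ZNF689 differed between the combination and isotype by -0.30 per 10-fold dose in the test of the 2 slopes. The trends of level with GC content and gene length differed among the libraries, and the T cell minus B cell marker difference moved with the arms. Counts of calls with the length offset, the GC and length offset and the marker covariate are given. With the GC and length offset the terms of ZNF121, ZNF107, ZNF32 and ZNF622 were 0.57, 0.35, -0.46 and -0.14. Their values with the marker covariate, and those of the ZNF689 slope with offset or covariate, are not given here.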

How the results depend on the processing

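With the GC and length offset ZNF207, not called with anti-LAG3, was called at 0.17, and the non-additive terms of ZNF428 and ZNF787 changed sign, to 0.01 and 0.06. The number of members called with anti-LAG3, 26, was 12 with the length offset, 15 with the GC and length offset, 0 with the marker covariate and 8 to 30 when 1 library was left out. With anti-PD1, 10 became 3 with the length offset, 1 with the GC and length offset and 0 to 16 when 1 library was left out. The combination minus anti-LAG3, 12, gave 3 with the covariate and 0 to 13 without 1 library, and the combination minus anti-PD1, 0, gave 2 with DESeq2, 2 without the filter and 0 to 2 without 1 library. The non-additive count, 36, was 23 with the length offset, 16 with the GC and length offset, 17 with the covariate and 20 to 40 without 1 library. The combination slope, 1, gave 2 without the filter, 2 with the GC and length offset and 0 to 3 without 1 library. The combination and anti-PD1 minus anti-LAG3 gave 0 to 0, as did the anti-LAG3 and anti-PD1 slopes, without 1 library. With no replicate block the counts were 25 for anti-LAG3, 10 for anti-PD1, 11 for the combination minus anti-LAG3 and 35 for the non-additive term. Leaving out the 0.01 µg/ml combination library gave 1 call in the combination minus anti-PD1, and leaving out the 1 µg/ml isotype library gave 2. With anti-LAG3 the smallest called difference was that of ZNF664, -0.14 on the log2 scale. As each condition had 1 library, no test at a single dose was run here. The authors' deposited tables set 1 antibody library against the isotype libraries of all 3 doses.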
